A study of Homo sapiens and synthetic construct with 129 samples.

Results

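SLC35B1 and TMEM241 are 2 of the 258 solute carriers (SLCs) that were knocked out singly and in all 33153 pairs in HCT 116 cells, a human colorectal carcinoma line. Every sgRNA pair with a sgRNA against either gene was taken from the Cas12a and the Cas9 screen, which gave 15996 of 1075422 sgRNA pairs, 8013 for each gene. The pairs of a gene with an olfactory receptor (OR) sgRNA served as its single KO, with the OR sgRNAs as cutting controls. The genes were chosen by their LFC and dLFC against the input in these screens, SLC35B1 for its growth defect and the pair for its negative interaction. Values against the input are therefore given as a description and without a p-value. The scored pairs below were called by adjusted p thresholds on these same values. Those calls are a description too, and not independent support for the chosen genes or their pair.

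The screens asked which SLCs and which SLC pairs the cells need for growth. The Cas12a screen used 1 clone of HCT 116 with enCas12a, an engineered Cas12a nuclease, transduced with 4 sublibraries in triplicate and harvested at weeks 1, 2, 3 and 5. The Cas9 screen used 1 other clone of HCT 116, with Cas9, transduced in duplicate and harvested at weeks 1 to 4, with replicate 1 alone at week 4. All cells were selected with puromycin and grown in high glucose RPMI medium, and the plasmid library was the input of each screen. The antifungal nystatin was in the medium of both screens per the labels, while the methods name it for the Cas12a pools. Nuclease, clone and sgRNA design differ together between the screens, so their parts in a difference between the screens cannot be told apart. Each sample held 150938181 to 925299279 counts in the Cas12a screen and 266158636 to 367300698 in the Cas9 screen, with a median of 705 to 2391 and 574 to 793 counts per sgRNA pair. At week 3 the sgRNA pairs with SLC35B1 had fallen to medians of 31 to 86 counts in the Cas12a and 84 to 85 in the Cas9 samples, while those with TMEM241 had medians of 742 to 2731 and 629 to 647.

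SLC35B1, also named AXER, is a multi-pass membrane protein of the endoplasmic reticulum (ER) that brings ATP from the cytosol into the ER lumen in exchange for ADP. ATP inside the ER is used by the chaperone BiP and other folding factors, so secretory and membrane proteins depend on this supply. TMEM241 belongs to the same family of nucleotide sugar transporters by sequence and has been described as a Golgi transporter for UDP-N-acetylglucosamine. RefSeq lists TMEM241 under the symbol SLC35D4. In GRCh38.p14, SLC35B1 lies at chr17:49700943-49708197 and SLC35D4 at chr18:23238522-23437961.

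The sgRNAs against SLC35B1 are shown because they differed among themselves in strength and, with Cas9, by position. They are written 5′ to 3′ in the letters of the count tables, and capitals mark a stretch of 10 or more bases that a sgRNA shares with another sgRNA against the same gene. None of them was found, on either strand, in the RefSeq promoter window of SLC35B1, which runs from 250 bases before to 50 bases after its start; their exact positions in the gene were not mapped here.
Cas12a SLC35B1_1: gtaatgagcccGCATGTGGTCCT
Cas12a SLC35B1_2: acactgccagggtggatcgtacc
Cas12a SLC35B1_3: ctgcaggatcccatagtaaaaat
Cas9 SLC35B1_1: ggatagaagaacacacagt
Cas9 SLC35B1_2: gtttcccAGGACCACATGC
Cas9 SLC35B1_3: gtttgtcaactacccaactc
Cas9 SLC35B1_4: gccacaattaacagcacacac
Cas9 SLC35B1_5: ggcagcatagagccagctc
Cas9 SLC35B1_6: gatgttcagcatcatgtggt

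Cas12a SLC35B1_1 and Cas9 SLC35B1_2 shared 12 bases on opposite strands, so these sgRNAs of the 2 screens target neighbouring or overlapping sequence. The TMEM241 sgRNAs of the Cas12a screen, which make up the double KO described below, and the overlapping ones of the Cas9 screen are the following.
Cas12a TMEM241_1: tgcagaaaacatctcctgcaaag
Cas12a TMEM241_2: agtatgtgctgtctgtcttgaaa
Cas12a TMEM241_3: cctgaacctctaatacttaccag
Cas9 TMEM241_3: gtaGCTGAAGTTATCATCTG
Cas9 TMEM241_5: GCTGAAGTTATCATCTGt

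Cas9 TMEM241_3 and TMEM241_5 shared 17 bases on the same strand and are not independent sgRNAs. The Cas12a screen held 3 sgRNAs per gene and the Cas9 screen 6.

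Single KO of SLC35B1 gave the lowest log2 fold change (LFC, against the plasmid input and centred on OR-OR pairs) of all 258 SLCs in the Cas12a screen and the 5th lowest in the Cas9 screen, while single KO of TMEM241 stayed close to the OR controls in both. The Cas12a LFC of SLC35B1 in replicates 1 to 3 was −0.60, −0.59 and −1.04 at week 1, −3.50, −3.51 and −3.49 at week 2, −4.42, −4.43 and −4.68 at week 3, and −4.76, −4.68 and −5.05 at week 5. Week 2 rests on sublibraries 1 and 2 alone. The mean at week 3, −4.51 ± 0.15 (SD, n = 3), is a 22.8-fold drop, and most of it lay between weeks 1 and 2. With Cas9 the LFC was −0.01 and 0.02 at week 1, −1.94 and −2.0 at week 2, −3.02 and −3.22 at week 3, and −3.72 in the single replicate of week 4. The week 3 mean of −3.12 ± 0.14 (SD, n = 2) is an 8.69-fold drop. At weeks 1, 2 and 3 the Cas9 replicates lay above all Cas12a replicates, so the loss of SLC35B1 sgRNAs came later and was smaller in the Cas9 clone.

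TMEM241 is the comparison within the same cells. Its LFC at week 3 was −0.06, −0.05 and −0.02 in the Cas12a and 0.00 and −0.04 in the Cas9 replicates. At week 5 the Cas12a replicates were at 0.15, 0.11 and 0.12, and at week 4 the Cas9 replicate was at −0.15. No replicate of TMEM241 came near one of SLC35B1 from week 2 on.

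**Figure D1:**
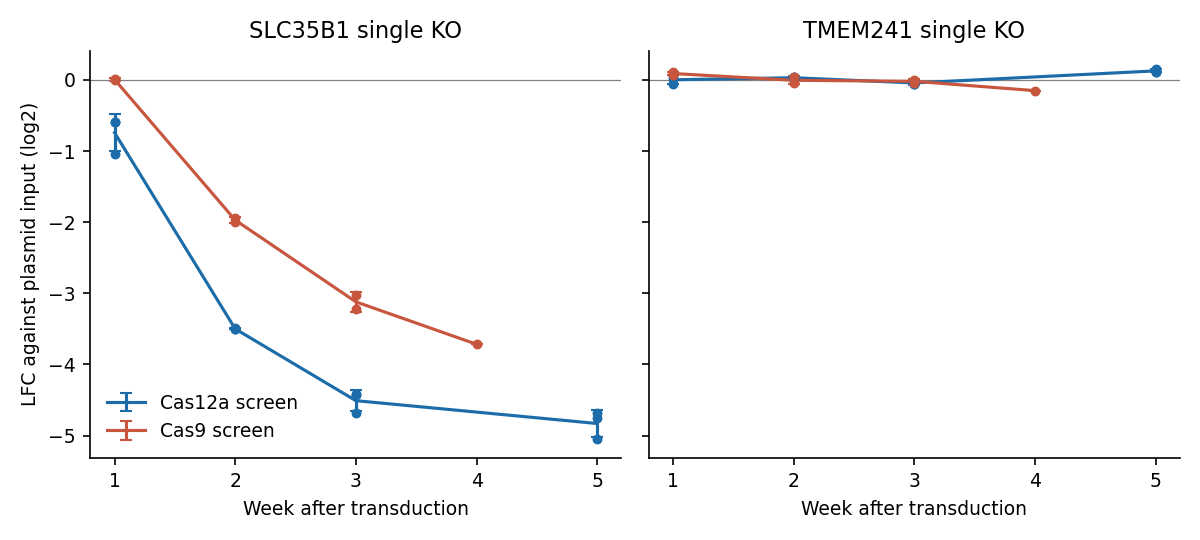
Single KO LFC (log2, against the plasmid input, centred on OR-OR pairs) of SLC35B1 and TMEM241 by week after transduction in the Cas12a and Cas9 screens; points are replicates and lines join their means. SLC35B1 falls to −4.51 (Cas12a) and −3.12 (Cas9) at week 3, while TMEM241 stays between −0.15 and 0.15 from week 2 on.

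The next SLC above SLC35B1 with Cas12a was SLC25A3, the mitochondrial phosphate carrier, at −3.53 ± 0.10 (SD, n = 3), and no replicate of it reached those of SLC35B1. MTCH2, an outer mitochondrial membrane insertase, followed at −2.68 and SLC25A26, the mitochondrial S-adenosylmethionine carrier, at −2.42. Its Cas9 neighbours were MTCH2 at −3.25 ± 0.08 (SD, n = 2), the mitochondrial zinc transporter SLC30A9 at −2.97 ± 1.17, and SLC39A7, which releases zinc from the ER, at −2.87 ± 0.07. The replicates of MTCH2, −3.31 and −3.20, overlapped those of SLC35B1, and those of SLC30A9, −3.80 and −2.14, lay on both sides of them, so these neighbours in the Cas9 order did not differ beyond their spread. Those of SLC39A7, −2.92 and −2.82, did not overlap. 6 SLCs in the Cas12a and 9 in the Cas9 screen were below −2. TMEM241 was the 132nd lowest in the Cas12a and the 86th lowest in the Cas9 screen. Its nearest SLCs, SLC25A14, SLC25A37 and SLC15A4 in the Cas12a screen, had means of −0.04 as well, and SLC35E3, SLC44A2 and SLC25A45 in the Cas9 screen had means of −0.02 to −0.03.

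Counts were also compared between weeks with edgeR, without the input samples. The genes were chosen on the LFC of all weeks, so the changes between weeks are given with their SE and no p-value. From week 1 to week 3 the SLC35B1 single KO counts changed by a log2 fold change of −2.99 ± 0.10 (SE) in sublibrary 1, −3.24 ± 0.14 in sublibrary 2, −3.03 ± 0.19 in sublibraries 3 and 4 and −2.57 ± 0.07 in the Cas9 screen. Of all genes, 35%, 34.3%, 23.4% and 37.9% were called lower at week 3 in these tables, by edgeR at an adjusted p under 0.05. The change of SLC35B1 from week 3 to week 5 was much smaller. It was −0.53 ± 0.09 in sublibrary 1, 0.03 ± 0.13 in sublibrary 2 and −0.09 ± 0.18 in sublibraries 3 and 4. These counts are sums, in which the least depleted sgRNA pairs weigh most. As a mean over sgRNA pairs, the LFC in sublibrary 2 went from −4.38 ± 0.09 to −4.69 ± 0.14 (SD, n = 3). In sublibrary 1 the median gene changed by −0.28 and 67.5% of all genes were called lower at week 5, against 14.6% and 8.39% in the other tables, and with TMM scaling the SLC35B1 change there was −0.26. The labels mark the sublibrary 1 samples of weeks 1 and 3, but not those of weeks 2 and 5, with v0, so this contrast also crosses that label.

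For TMEM241 the changes between weeks were small outside sublibrary 1. From week 1 to week 3 its log2 fold change was −0.14 ± 0.06 (SE) in sublibrary 1, 0.05 ± 0.03 in sublibrary 2, 0.01 ± 0.05 in sublibraries 3 and 4 and −0.03 ± 0.03 in the Cas9 screen. From week 3 to week 5 it was 0.63 ± 0.06 in sublibrary 1, 0.08 ± 0.03 in sublibrary 2 and 0.09 ± 0.05 in sublibraries 3 and 4. Of all genes, 15%, 2.92% and 1.46% were called higher at week 5 in these tables. The sublibrary 1 value from week 1 to week 3 was −0.07 without replicate 2.

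The sublibrary 1 difference between weeks 3 and 5 was largest for 1 TMEM241 sgRNA. TMEM241_1 was at −0.76 ± 0.26 at week 1 and −0.91 ± 0.18 at week 3 in the samples labelled v0, and at 0.02 ± 0.04 at week 2 and 0.15 ± 0.06 at week 5 in the samples without that label (SD, n = 3). In the same sublibrary TMEM241_2 was at −0.05, −0.22 and −0.15 and TMEM241_3 at 0.17, −0.09 and 0.33 at weeks 1, 3 and 5. In sublibrary 2 and in sublibraries 3 and 4, TMEM241_1 was between 0.07 and 0.20 at week 3. The low values of this sgRNA thus followed the v0 samples, and the part of that label in them was not tested.

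The sgRNAs against SLC35B1 were not equally strong. Among the Cas12a sgRNAs SLC35B1_1 was at −5.45 ± 0.19 and SLC35B1_3 at −5.28 ± 0.19 at week 3, while SLC35B1_2 was at −2.80 ± 0.13 (SD, n = 3), and the replicates of SLC35B1_2 did not overlap those of the other two. The 6 Cas9 sgRNAs had means from −2.34 for SLC35B1_6 to −4.26 for SLC35B1_4. TMEM241 sgRNAs lay between −0.18 and 0.19 in the Cas12a and between −0.46 and 0.46 in the Cas9 screen at week 3. The lowest of them, Cas9 TMEM241_6, went from 0.06 at week 1 to −0.28, −0.46 and −0.79 at weeks 2 to 4, unlike the gene as a whole.

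SLC35B1 single KO differed with the position of its sgRNA in the array, first or second, and in opposite directions in the 2 screens. These are again LFCs against the input, the values SLC35B1 was chosen by, so no p-value is given. The Cas9 LFC at week 3 in the first position minus that in the second was −1.01 and −1.53 in replicates 1 and 2, a mean difference of −1.27 ± 0.36 (SD, n = 2), against a median of −0.02 over 263 genes. In sublibraries 3 and 4 of the Cas12a screen the LFC was higher in the first position by 0.66, 0.75 and 0.23, a mean difference of 0.55 ± 0.28 (SD, n = 3), against a median of 0.04 over 148 genes. For TMEM241 the first minus the second position was 0.05 ± 0.07 in sublibraries 3 and 4 and 0.03 ± 0.04 in the Cas9 screen.

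The Cas9 difference lay in 3 of the 6 sgRNAs. SLC35B1_3 was at −5.29 in the first and −2.24 in the second position, SLC35B1_2 at −4.31 and −1.66, and SLC35B1_4 at −5.38 and −3.13. In the second position these 3 sgRNAs lay on both sides of the others. SLC35B1_1 was at −2.62 and −2.88, SLC35B1_5 at −2.56 and −2.70 and SLC35B1_6 at −2.37 and −2.30, differences of at most 0.26. All 3 Cas12a sgRNAs were lower in the second position, SLC35B1_1 with −6.03 against −5.32, SLC35B1_2 with −3.15 against −2.47 and SLC35B1_3 with −5.56 against −5.30. The difference was smallest in replicate 3, in which the first position was also lower than in the others at week 1, at −2.28 for SLC35B1_1 against −0.69 and −0.84.

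**Figure D2:**
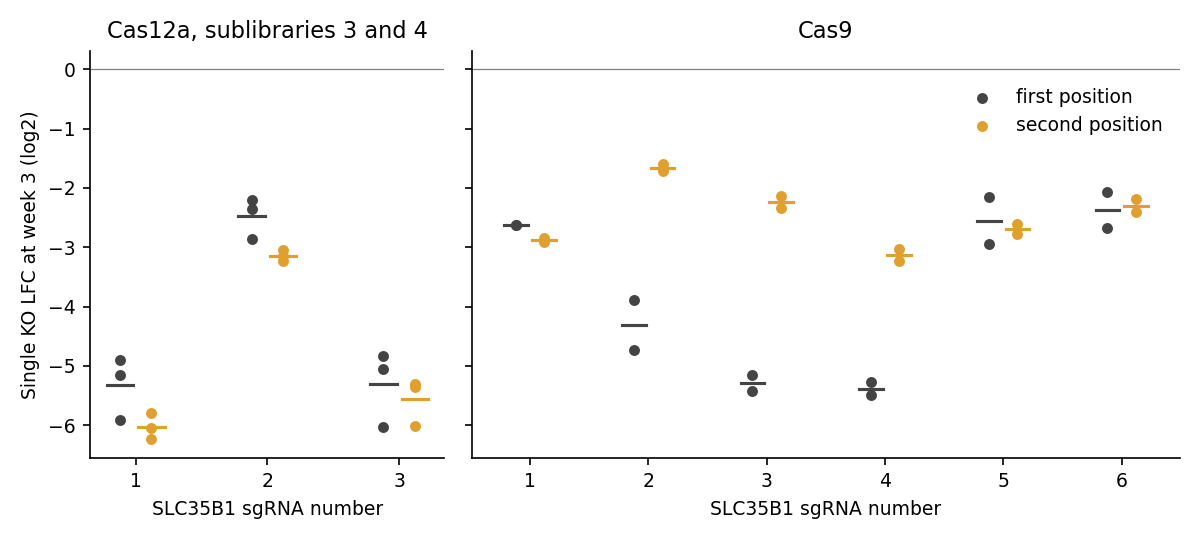
Single KO LFC (log2, week 3) of each sgRNA against SLC35B1 in the first and in the second position of the array. Cas12a values are from sublibraries 3 and 4. Points are replicates and bars their means. Cas9 SLC35B1_2, SLC35B1_3 and SLC35B1_4 are lower in the first position (−4.31, −5.29 and −5.38) than in the second (−1.66, −2.24 and −3.13).

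Arrays with different sgRNAs against SLC35B1 went lower than its single KO, while for those with the same sgRNA the single KO lay within their spread. Each array of different sgRNAs holds SLC35B1_1 or SLC35B1_3, while the single KO means include the weaker SLC35B1_2, so the comparison is uneven. In sublibraries 3 and 4 the 6 arrays with different SLC35B1 sgRNAs had a mean LFC of −6.65 ± 0.50 at week 3, and the 3 arrays with the same sgRNA on both sides −5.45 ± 1.12 (SD, n = 3), against −4.37 and −4.91 for SLC35B1 with ORs in the first and second position. The matching TMEM241 arrays were at 0.10 ± 0.14 and −0.25 ± 0.53. Of the Cas9 arrays, only 3 of the 6 same-sgRNA arrays of each gene had 10 or more input counts, and both genes were already low at week 1, at −3.25 for SLC35B1 and −2.34 for TMEM241, so these arrays do not show growth alone.

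Double KOs were compared with the sum of their single KOs. The difference, dLFC, is LFC_obs minus LFC_exp, so a negative value (synthetic lethal) means fewer cells than the single KOs add up to, and a positive value (synthetic viable) more. A pair was scored with the methods' t-test, which sets LFC_obs against LFC_exp for each of its sgRNA pairs, and with their thresholds, at a |dLFC| over 0.3. This scoring was rebuilt from the methods, which do not say in full how weeks and replicates were merged, so the calls and the shares of all pairs called are those of the rebuilt scoring and may differ from the study's own lists. It called fewer Cas12a pairs and far more Cas9 pairs than the study reports, so a scored Cas9 pair is a looser call here. With SLC35B1 already near −4.5, a pair has few counts left, and each dLFC is a difference between large negative numbers. For this reason the spread over sgRNA pairs and replicates, and not the SD of the mean alone, limits what can be read from a single partner.

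Of the 257 partners of SLC35B1, 18 were scored in the Cas12a screen, 17 as synthetic lethal and 1 as synthetic viable. That is 7.0% of its pairs, against 0.465% of all pairs scored, 0.401% as lethal and 0.0633% as viable, and 2 SLCs had more. Among the lethal partners were SLC39A1, a zinc importer of the plasma membrane, at −1.20 ± 0.45, SLC39A13, a zinc transporter of the early secretory pathway, at −0.89 ± 0.11, and the sugar transporter SLC45A1 at −0.88 ± 0.27 (SD, n = 3). The myo-inositol transporter SLC5A3 was at −0.80 ± 0.11, the purine nucleobase transporter SLC43A3 at −0.79 ± 0.26, and SLC38A7, a lysosomal glutamine exporter, at −0.73 ± 0.33. These partners carry zinc, sugars, inositol, nucleobases and glutamine and sit in different membranes. The mitochondrial 2-oxodicarboxylate carrier SLC25A21 was at −0.74 ± 0.20, the orphan SLC35G2 at −0.69 ± 0.16, the sugar transporter SLC50A1 at −0.67 ± 0.13, the anion exchanger SLC4A3 at −0.63 ± 0.18, and SLC9A7, a sodium-proton exchanger of the trans-Golgi network, at −0.63 ± 0.11. MFSD6 was at −0.58 ± 0.15 and the aromatic amino acid transporter SLC16A10 at −0.46 ± 0.06. The remaining lethal partners, TMEM241 and the adenine nucleotide carriers SLC25A6, SLC25A25 and SLC17A9, are described below. The viable partner was SFXN4, a mitochondrial protein needed for iron-sulphur clusters and complex I, at 0.82, 0.95 and 0.79 in replicates 1 to 3. Its value differed by orientation, 0.31 with SLC35B1 first in sublibraries 3 and 4 and 1.39 with SLC35B1 second in sublibrary 1.

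The calls must be read against a shift of the whole gene. The median dLFC over all 257 partners of SLC35B1 was −0.23, 215 of them (83.7%) were negative against 52.4% of all pairs, and 101 (39.3%) were below −0.3 against 1.62% of all pairs. The SD over partners, 0.38, compares with a median of 0.090 over SLCs, and 1 SLC had a larger one. With all 257 partners included, the week 1 median was −0.04, that of week 3 −0.23 and that of week 5 −0.33. Week 2 covers only the 128 partners of sublibraries 1 and 2. Its median of −0.07 is therefore not a step between weeks 1 and 3. The medians by sublibrary given next are those of week 3. The shift was not the same in every part of the library. It was 0.02 over the 64 partners of sublibrary 1 and −0.03 over the 64 of sublibrary 2, in both of which SLC35B1 is second, but −0.21 over 129 partners of sublibraries 3 and 4 with SLC35B1 second and −0.39 over 257 partners with SLC35B1 first. In the last the replicates had medians of −0.39, −0.36 and −0.47.

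When dLFC was centred to a median of 0 over partners for every SLC35B1 and TMEM241 sgRNA in each position and table, an alternative chosen after seeing the data, 5 pairs of SLC35B1 were scored in place of 18. 3 pairs were shared with the original 18, SLC35B1-SLC39A1 at −0.78, SLC35B1-SLC25A21 at −0.50 and SFXN4-SLC35B1 at 1.11. The other two were synthetic viable with nucleotide sugar transporters, SLC35A3 at 0.82 and SLC35B4 at 0.89. The lethal calls with SLC39A13, SLC45A1, SLC5A3 and TMEM241, among others, were not made once the shift that SLC35B1 shows with most partners was taken off. The centred dLFC was −0.46 for SLC39A13 and for SLC45A1 and −0.38 for SLC5A3, still past the 0.3 size threshold, and −0.18 for TMEM241.

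With partners that are themselves needed for growth the sign turned. Against the 5 other essential SLCs the dLFC of SLC35B1 was positive throughout, from 1.25 ± 0.47 for the cationic amino acid transporter SLC7A1 through 1.41 for SLC25A26, 1.72 for SLC25A3 and 1.76 for SLC30A9 to 1.80 for MTCH2, with a median of 1.72. The expected LFC of these pairs ran from −6.80 to −8.03. The saturation filter, which drops viable calls whose LFC_obs is below both single KOs, removed these 5 and NPC1, the lysosomal cholesterol exporter, at 0.67. Over 257 partners the dLFC of SLC35B1 correlated with the single KO LFC of the partner at r = −0.77, and at −0.54 over 252 partners without the essential SLCs; both measures share the single KO term, so this is a description. LETM1, a mitochondrial ion exchanger at −0.78 as a single KO, had a dLFC of 0.42 ± 0.07.

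Of the same 257 partners, 4 were scored in the Cas9 screen, 1.56% against 2.13% of all pairs, so at these thresholds SLC35B1 had no excess of scored pairs there. TMEM241 at −0.61 ± 0.37 and NPC1 at −0.76 ± 0.02 were synthetic lethal (SD, n = 2), a class that holds 1.32% of all pairs. SLC35B4, a transporter of UDP-xylose and UDP-N-acetylglucosamine, at 0.72 ± 0.05 and the ascorbate transporter SLC23A2 at 0.75 ± 0.13 were synthetic viable, against 0.808% of all pairs. 8 partners in all had passed the size and p thresholds, which 3.45% of all pairs did, and the saturation filter removed SLC7A1 at 0.79, MTCH2 at 0.81, LETM1 at 0.85 and SLC25A3 at 0.93. The lowest values that were not scored belonged to SLC38A10 at −0.82 ± 0.11, SLC35D2, a Golgi nucleotide sugar transporter, at −0.80 ± 0.06, SLC41A3 at −0.78 ± 0.30 and SLC37A2 at −0.72 ± 0.09. The highest were SLC30A9 at 1.13 ± 0.49 and the amino acid exchanger SLC7A5 at 0.81 ± 0.56. The median over partners was −0.10, 162 (63.0%) were negative against 54.3% of all pairs, and 66 (25.7%) were below −0.3 against 7.18%. With SLC35B1 first the median was −0.21, from −0.37 in replicate 1 and 0.02 in replicate 2, and with SLC35B1 second it was 0.04. After the same centring 4 pairs were scored, with NPC1, SLC23A2 and SLC35B4 shared, SLC38A10 added and TMEM241 at −0.64 no longer scored.

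In the rebuilt scoring TMEM241 was the only partner of SLC35B1 scored in both screens, 1 of 18 (5.56%) and 1 of 4 (25%). Centred by sgRNA, position and table, TMEM241 was scored in neither screen, and SLC35B4 was scored viable in both, at 0.89 and 0.72. The study's text names lethal pairs with essential SLCs found in both of its screens, and SLC35B1-TMEM241 is not among them. Of all 33153 pairs, 20 (0.0603%) were scored in both and 14 (0.0422%) as synthetic lethal in both. SLC39A1 (−0.45 ± 0.09), SLC39A13 (−0.44 ± 0.28), SLC5A3 (−0.46 ± 0.31) and SLC25A6 (−0.64 ± 0.08) were negative in both Cas9 replicates but not scored there. Over 257 partners the dLFC of the 2 screens correlated at r = 0.30, and at 0.06 over 252 partners without the essential SLCs. The consistency within a screen differed as well. With Cas12a, SLC35B1_1 and SLC35B1_3 correlated at 0.64 over partners, the first and second position at 0.58 and replicates at 0.58 to 0.70. With Cas9, sgRNAs correlated at −0.06 to 0.17, positions at 0.13 and the 2 replicates at 0.27, so single partners are less certain there.

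**Figure D3:**
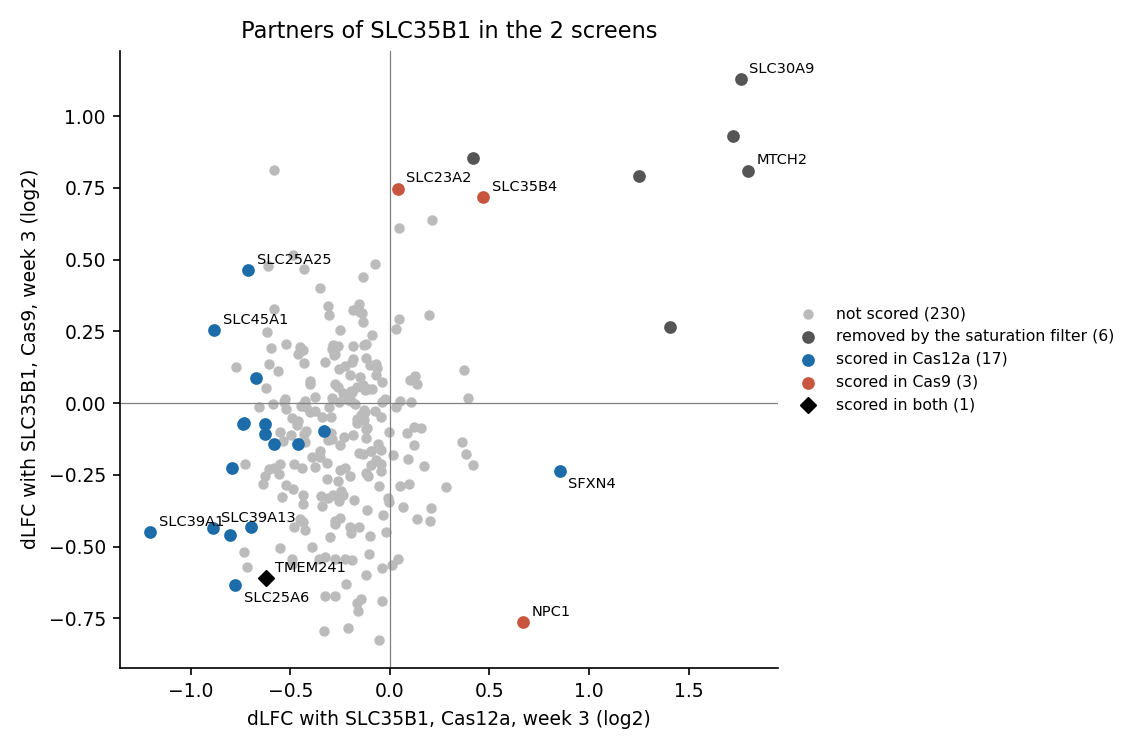
dLFC (log2, week 3) of SLC35B1 with each of 257 partners in the Cas12a (x axis) and Cas9 screen (y axis). Colours mark partners scored in either or both screens or removed by the saturation filter, and some partners are named. In the rebuilt scoring without centring by sgRNA, only TMEM241 (−0.62 and −0.61) is scored in both. The essential SLCs lie to the upper right.

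The SLC35B1-TMEM241 double KO had fewer cells than the single KOs add up to in both screens. In the Cas12a screen the gap was larger at later weeks. The median dLFC over all 257 partners of SLC35B1 also fell there, from −0.04 at week 1 to −0.23 at week 3 and −0.33 at week 5. A larger gap with time was thus not particular to this pair. The deposited counts show the decline of the pair, without the expectation from the single KOs. In sublibraries 3 and 4 the 18 sgRNA pairs together had 35511, 38972 and 38763 counts in the 3 inputs, 25812, 20161 and 16690 at week 1, 2561, 2579 and 2042 at week 3, and 2061, 1699 and 1569 at week 5. As CPM, the share of the sample's counts, these were 48.5 to 51.1 in the inputs and 2.57 to 3.08 at week 3. The 12 Cas9 sgRNA pairs had 11874 and 13534 counts in the inputs, 7619 and 10154 at week 1, 3359 and 2299 at week 2, 1816 and 1065 at week 3, and 1192 in the replicate of week 4. Most of this decline belongs to SLC35B1 alone, and dLFC gives what is left.

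The Cas12a LFC_obs at week 3 was −5.17 and LFC_exp −4.55. The dLFC of replicates 1 to 3 was −0.19, −0.20 and 0.05 at week 1, −0.56, −0.70 and −0.60 at week 3 (−0.62 ± 0.07, SD, n = 3), and −0.62, −1.0 and −0.66 at week 5 (−0.76 ± 0.21). All replicates of weeks 3 and 5 were below all of week 1. The Cas9 dLFC was −0.09 and −0.17 at week 1, −0.26 and −0.71 at week 2, and −0.35 and −0.87 at week 3 (−0.61 ± 0.37, SD, n = 2). Replicate 1 alone was at −0.28 at week 4. The Cas9 replicates had the same sign at each week but an SD of 0.32 at week 2 and 0.37 at week 3, both large beside the means.

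The pair was also read by orientation and by sgRNA. The Cas12a dLFC was −0.60 ± 0.22 with SLC35B1 first and −0.63 ± 0.30 with TMEM241 first (SD, n = 3), and 16 of 18 sgRNA pairs were negative. The Cas9 dLFC was −0.38 ± 0.23 with SLC35B1 first and −0.84 ± 0.51 with TMEM241 first (SD, n = 2), and 9 of 12 were negative. Both orientations were thus negative at week 3 and within each other's spread, whereas at week 4 the Cas9 replicate was at 0.17 and −0.74. As background, 87.5% of partners in sublibraries 3 and 4 had a negative dLFC with SLC35B1 first, and 70.5% with SLC35B1 second. In the Cas9 screen these shares were 67.3% and 47.1%. They are shares of partners and not of sgRNA pairs. Single sgRNA pairs ranged from −1.84 ± 0.67 for TMEM241_1-SLC35B1_3 to 1.16 ± 0.23 for SLC35B1_3-TMEM241_2 in the Cas12a screen. The latter was positive in all 3 replicates, while the reverse order, TMEM241_2-SLC35B1_3, was at −1.08 ± 0.45. By sgRNA, the 6 pairs with TMEM241_3 had the lowest mean, −0.93 ± 0.17, and those with TMEM241_2 and with SLC35B1_2 the highest, both −0.33. The Cas9 sgRNA pairs ran from −1.92 ± 0.51 for SLC35B1_4-TMEM241_4 to 0.17 ± 0.68 for SLC35B1_6-TMEM241_6.

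**Figure D4:**
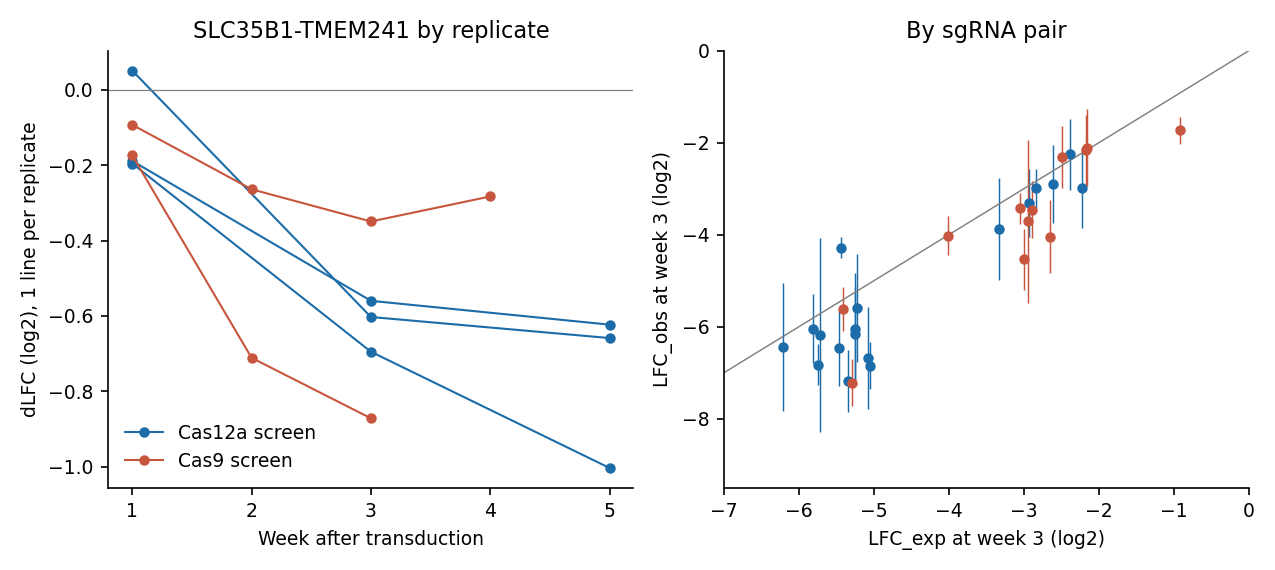
dLFC (log2) of the SLC35B1-TMEM241 double KO by week and replicate, and LFC_obs against LFC_exp of each sgRNA pair at week 3, in the Cas12a and Cas9 screens. The replicate dLFC values at week 3 are −0.56, −0.70 and −0.60 with Cas12a and −0.35 and −0.87 with Cas9. Of the sgRNA pairs, 16 of 18 and 9 of 12 lie below the line of equal LFC_obs and LFC_exp.

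Seen from TMEM241, the pair was the lowest of 257 in the Cas12a and the 3rd lowest in the Cas9 screen. Seen from SLC35B1, it was only the 22nd and the 13th lowest. Among the 300 pairs of SLC35 members and TMEM241 it was the 4th and the 2nd lowest, and among all 33153 pairs the 63rd and the 203rd lowest. The Cas12a medians over partners in sublibraries 3 and 4 were −0.39 with SLC35B1 first and −0.21 with SLC35B1 second, and after centring by sgRNA, position and table the dLFC of the pair was −0.18 ± 0.13 (SD, n = 3) and was not scored. The Cas9 value, −0.61 before and −0.64 after centring, hardly moved, but was not scored after it.

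TMEM241 itself had few interactions. In the Cas12a screen SLC35B1 was its 1 scored partner of 257 (0.389% against 0.465% of all pairs), and the SD over partners was 0.081 around a median of −0.02. The next values were MTCH2 at −0.43 ± 0.13, SLC7A1 at −0.21 ± 0.21, the orphan SLC10A4 at −0.20 ± 0.03 and the mitochondrial pyruvate carrier subunit MPC1 at −0.18 ± 0.06. SLC35B1 and MTCH2 were the only partners below −0.3, and both are needed for growth alone. At the other end stood the zinc transporter SLC39A3 at 0.19 ± 0.08, SLC45A4 and the creatine transporter SLC6A8, both at 0.13, and SLC2A11 and SLC39A7, both at 0.12, none of them beyond 0.3. All 6 essential SLCs, SLC35B1 among them, were negative with TMEM241 in the Cas12a screen, where 65.0% of all partners were. Their median was −0.18 against −0.02 over all partners. In the Cas9 screen 4 of 6 were negative, where 42.0% of all partners were, with a median of −0.08 against 0.03.

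TMEM241 had 4 scored partners in the Cas9 screen (1.56% against 2.13% of all pairs), SLC35B1 and 3 synthetic viable ones. The latter were LETMD1, a mitochondrial inner membrane protein, at 0.34 ± 0.02, the orphan mitochondrial carrier SLC25A43 at 0.37 ± 0.09 and the magnesium transporter NIPA2 at 0.38 ± 0.11 (SD, n = 2). In the Cas12a screen these were at −0.04, −0.09 and −0.07, and after the centring by sgRNA none of the 4 remained scored although their Cas9 values moved little, to 0.31 for LETMD1, 0.33 for SLC25A43, 0.35 for NIPA2 and −0.64 for SLC35B1, while MFSD6 at −0.32 and SLC30A6 at −0.41 were scored. Another 4 partners passed the thresholds but had changed by less than 0.1 since week 1, SLC37A3, SLC27A2, SLC35F3 and SLC25A32. The lowest values were SLC25A3 at −0.73 ± 0.04 and LETM1 at −0.65 ± 0.14, followed by SLC35B1, the cation-chloride cotransporter family member SLC12A9 at −0.57 ± 0.45 and SLC35E4 at −0.43 ± 0.10. The highest were SLC25A46 at 0.48 ± 0.37 and the glutamate carrier SLC25A22 at 0.39 ± 0.17, with SLC66A1, a lysosomal transporter of cationic amino acids, at 0.36 ± 0.11. The dLFC of TMEM241 in the first and second position correlated at −0.05 over partners in the Cas9 screen.

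A list of 21 partners that work in the ER and Golgi left out TMEM241 and SLC9A7. Both were scored lethal in the Cas12a screen, and TMEM241 also in the Cas9 screen. Of the 21 listed, 1 (SLC39A13) was scored lethal in the Cas12a screen, beside 17 of all 257 partners. Their median dLFC was −0.13, with a range of −0.89 to 0.47, against −0.23 over all partners. In the Cas9 screen 1 of the 21 (SLC35B4) was scored viable, beside 2 of 257, with a median of −0.09 against −0.10. The CMP-sialic acid transporter SLC35A1 was at −0.72 ± 0.10 in the Cas12a and −0.57 ± 0.57 in the Cas9 screen, unscored in both. SLC35D2 was at −0.33 ± 0.14 and −0.80 ± 0.06, and SLC35B3, which moves the sulphate donor PAPS, at −0.54 ± 0.40 and −0.33 ± 0.35. On the positive side SLC35B4 was at 0.47 ± 0.36 and 0.72 ± 0.05, and SLC39A7 at 0.21 ± 0.34 and 0.64 ± 0.59. The UDP-galactose transporter SLC35A2 was at −0.35 ± 0.31 and 0.40 ± 0.24, and the second PAPS transporter SLC35B2 at 0.04 ± 0.18 and 0.61 ± 0.12. MAGT1, a subunit of the oligosaccharyltransferase, was at −0.28 ± 0.08 and −0.55 ± 0.46, and the acetyl-CoA transporter of the ER, SLC33A1, at 0.17 ± 0.16 and −0.22 ± 0.57. None of these passed the scoring other than SLC39A13 and SLC35B4, each in 1 screen.

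All 9 carriers that move adenine nucleotides across other membranes had a dLFC below 0 with SLC35B1 in the Cas12a screen, where 83.7% of all partners did, with a median of −0.31 against −0.23, and 3 of them were scored lethal, beside 17 of 257. SLC25A6, a mitochondrial ADP/ATP carrier, was at −0.78 ± 0.17, the ATP-Mg/phosphate carrier SLC25A25 at −0.71 ± 0.10 and SLC17A9, the vesicular nucleotide transporter, at −0.33 ± 0.09, just past the 0.3 threshold. The other ADP/ATP carriers SLC25A4 and SLC25A5 were at −0.43 ± 0.16 and −0.004 ± 0.08, and the ATP-Mg/phosphate carriers SLC25A23 and SLC25A24 at −0.14 ± 0.43 and −0.10 ± 0.20. SLC25A17 of the peroxisome was at −0.22 ± 0.25 and the coenzyme A carrier SLC25A42 at −0.31 ± 0.19. After the centring by sgRNA none of the 3 was scored, with SLC25A6 at −0.54, SLC25A25 at −0.47 and SLC17A9 at −0.076. In the Cas9 screen none of the 9 was scored and 5 were negative, with a median of −0.10. SLC25A6 was at −0.64 ± 0.08 there and SLC25A17 at −0.54 ± 0.09, but SLC25A25 was at 0.46 ± 0.38 and SLC25A4 at 0.47 ± 0.22. With TMEM241 these 9 had medians of −0.02 and 0.17, and none was scored.

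The counts of the other groups stand beside the 7.0% of all SLC35B1 partners scored in the Cas12a and the 1.56% in the Cas9 screen. Of 24 members of the SLC35 family with TMEM241, SLC35G2 and TMEM241 were lethal with SLC35B1 in the Cas12a screen (median −0.25), and TMEM241 lethal and SLC35B4 viable in the Cas9 screen (median −0.16). Of 18 zinc transporters, SLC39A1 and SLC39A13 were lethal in the Cas12a screen (median −0.17) and none was scored in the Cas9 screen (median −0.11). Of 47 mitochondrial carriers, 3 were lethal and SFXN4 viable in the Cas12a screen (median −0.18), and none was scored in the Cas9 screen. None of 6 glucose transporters was scored in either screen, and of 16 lysosomal transporters only NPC1, in the Cas9 screen. These groups were listed with earlier results of the screens known, so their counts are a description.

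The dLFC profile of SLC35B1 over 256 shared partners was most like those of MTCH2 (r = 0.76), SLC25A26 (0.74), SLC30A9 (0.72), SLC7A1 (0.68) and SLC25A3 (0.67) in the Cas12a screen, the 5 other essential SLCs. In the Cas9 screen it was most like SLC4A7 (0.32), MTCH2 (0.31), LETM1 (0.28), SLC30A9 (0.26) and SLC35A2 (0.26). These are Pearson values, and the Spearman rank correlations were lower. In the order named they were 0.49, 0.53, 0.53, 0.45 and 0.42 with Cas12a. With Cas9 they were 0.18, 0.17, 0.10, −0.005 and 0.19. The profile of TMEM241 was most like SLC4A3 (0.53), SLC43A3 (0.52), SLC6A20 (0.49), SLC48A1 (0.48) and SLC50A1 (0.48) in the Cas12a screen, and SLC41A2 (0.31), MFSD14B (0.29), SLC6A8 (0.29), MFSD4B (0.28) and DIRC2 (0.26) in the Cas9 screen. SLC35B1 and TMEM241 were not like each other, at r = −0.30 and −0.08. Partners share libraries and single KO terms, so these correlations describe the tables.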

How the data were processed

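Counts per sgRNA pair were deposited by the authors as raw read counts, not scaled. Per the labels and methods, reads were trimmed with cutadapt 4.8 and perfect matches counted with MAGeCK 0.5.9.2.4, after the reads of a pair were joined in the Cas9 screen. 54 of the 129 samples were used, 45 of the Cas12a and 9 of the Cas9 screen. 3 columns shared by 6 week 2 samples of sublibraries 3 and 4 were not used. Replicates are separate transductions of 1 clone.

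With Python 3.11.15, numpy 2.4.6, pandas 2.3.3, scipy 1.17.1 and statsmodels 0.14.6, 1 was added to each count, divided by the sample total and set against the mean input as log2, then centred on the median of 144 OR-OR pairs per table. sgRNA pairs with a mean input under 10 were left out, 70 in sublibrary 1 and 1333 in the Cas9 screen. For LFC_exp, the single KO means of both sgRNAs in the same position and table were added, and each sample was shifted so that its median dLFC over all pairs was 0. dLFC was averaged over sgRNA pairs, then over replicates. Scoring rebuilt the study's paired t-test, run over sgRNA pairs, with Benjamini, Krieger and Yekutieli adjustment over all 33153 pairs: adjusted p under 0.1 in each of 3 Cas12a replicates (weeks 2, 3 and 5; no week 2 in sublibraries 3 and 4), or under 0.005 over all Cas9 samples of weeks 2 to 4, and |dLFC| over 0.3. Viable calls with LFC_exp under −0.3 and LFC_obs below both single KOs, and pairs within 0.1 of week 1, were removed. The weeks of a sgRNA pair enter this test as separate values, and the calls are those of this rebuilt scoring.

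Single KO counts summed over OR partners were compared between weeks with edgeR 4.0.16 (quasi-likelihood, OR-OR counts as library size) and positions with limma 3.58.1, in R 4.3.3, over all genes, and genes were called at an adjusted p under 0.05; the p-values of SLC35B1 and TMEM241 are not given, since both genes were chosen on these samples. Both and the scoring were tested on simulated data. DESeq2 1.42.0 served as an alternative, and figures were drawn with matplotlib 3.10.9. Errors are SD over replicates unless SE is given.

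Replicate numbers mark a transduced pool sampled each week. Deviations from the group means of weeks 1 and 3 correlated, for equal numbers, at 0.58, 0.03 and 0.44 in sublibrary 1, 0.38, 0.09 and 0.30 in sublibrary 2, 0.57, 0.43 and 0.50 in sublibraries 3 and 4, and 0.14 in the Cas9 screen. No samples were identical.

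Partners named were those of scored pairs, the 5 lowest and 5 highest in dLFC, those of the ER and Golgi and the adenine nucleotide lists, the essential SLCs, the 5 nearest profiles and the 3 nearest single KOs. Members and lists were chosen with earlier results of these data known. Alternatives changed the pseudocount, filters, input, centring, test, sgRNAs and replicates used.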

Additional observations from a re-analysis of the deposited data

Results flagged for a closer look

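For 6 partners of the 2 genes, each scored in 1 screen, all replicates of the Cas12a screen had 1 sign of dLFC and all of the Cas9 screen the opposite sign. The difference between the screens was not tested for any of the 6, and the share of all partners with opposite signs was not counted. Between the screens dLFC correlated at r = 0.11 over all 33153 pairs. Without the essential SLCs it correlated at 0.06 for SLC35B1 and −0.04 for TMEM241, so opposite signs need not be particular to these 6. With SLC35B1, SFXN4 was at 0.85 ± 0.08 in the Cas12a and −0.24 ± 0.01 in the Cas9 screen, SLC45A1 at −0.88 ± 0.27 and 0.25 ± 0.16, and SLC25A25 at −0.71 ± 0.10 and 0.46 ± 0.38. NPC1, which the saturation filter removed in the Cas12a screen, was at 0.67 ± 0.14 there and at −0.76 ± 0.02 in the Cas9 screen. With TMEM241, LETMD1 was at −0.038 ± 0.02 and 0.34 ± 0.02, and SLC25A43 at −0.091 ± 0.04 and 0.37 ± 0.09. Errors are SD over 3 Cas12a and 2 Cas9 replicates.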

How the results depend on the processing

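The low counts of SLC35B1 pairs from week 3 on limit its dLFC more than those of TMEM241. The dLFC of SLC35B1-TMEM241 kept its sign under every alternative run. In the Cas12a screen it was −0.49 with a pseudocount of 5, −0.76 without SLC35B1_2, −0.54 without SLC35B1_3, −0.76 without TMEM241_2, −0.46 without TMEM241_3 and −0.18 with centring by sgRNA, the last and the removal of single sgRNAs being chosen after seeing the data. Scored pairs of SLC35B1 in the Cas12a screen numbered 11 with a pseudocount of 5, 0 from week 3 alone, 5 with centring by sgRNA, 99 with limma, and 30 to 34 with 1 replicate left out, when 2 replicates in place of 3 had to pass. In the Cas9 screen they numbered 2 against the input of the same number, 0 from week 3 alone, 8 without the saturation filter, 34 with limma and 0 with either replicate left out. Those of TMEM241 numbered 0 from week 3 alone, 0 with centring by sgRNA, 2 with limma and 1 to 2 with 1 replicate left out in the Cas12a screen. In the Cas9 screen they numbered 0 against the input of the same number, 19 with LFC_exp not shifted, 0 from week 3 alone, 8 without the week 1 filter, 2 with centring by sgRNA and 0 with either replicate left out. The limma counts are pairs at an adjusted p under 0.05 and a |dLFC| over 0.3, without the saturation, week 1 and per-replicate rules. The share of all pairs called is not given for each alternative, so these counts do not show whether the gene or the whole screen moved. Single KO LFC moved to −2.97 for SLC35B1 in the Cas9 screen with a pseudocount of 5, and for TMEM241 to −0.091 with the sublibrary 1 input without v0 (Cas12a), −0.056 without the input filter and −0.12 without OR centring (Cas9). Between weeks 3 and 5 SLC35B1 ranged from −0.17 (without replicate 3) to −0.010 in sublibraries 3 and 4 and from −0.051 to 0.12 in sublibrary 2 with 1 replicate left out. With TMM the change of SLC35B1 in sublibrary 1 between these weeks was −0.26 and that of TMEM241 0.90. Between weeks 1 and 3 TMEM241 was 0.021 in the Cas9 screen, −0.10 in sublibrary 1 and 0.094 in sublibrary 2 with TMM. With 1 replicate left out it ranged from −0.20 to −0.067 in sublibrary 1 and from −0.032 to 0.031 in sublibraries 3 and 4. Between weeks 3 and 5 it ranged from 0.069 to 0.098 in sublibrary 2. The replicate block changed no call; with it, SLC35B1 changed by −0.54 from week 3 to week 5 in sublibrary 1. Leaving out a replicate was not possible for the Cas9 edgeR and position tests, which then have no residual degrees of freedom. The position differences kept their sign under all alternatives run. The cause of the changes was not tested.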
